A study of Homo sapiens with 6 samples.

Results

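Mitochondrial ribosomal protein genes were taken as the protein-coding genes of GENCODE release 29 whose symbol is MRPL or MRPS followed by a number. The rule gave 78 genes, 49 with an MRPL and 29 with an MRPS symbol, of 56982 gene identifiers listed in both deposited expression tables, and no measured value entered it. All 78 were listed in both tables. An FPKM (fragments scaled to the length of the gene and the size of the library) of at least 1 in at least 2 libraries was required for the tests, and 77 members met it. MRPS24 was the exception, at 1.09 FPKM in G3C2 and 0.93 in WT in replicate 1, then at 0.30 and 0.34 in b, and at 0.90 and 0.53 in c.

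The cells were U2OS, a human osteosarcoma line, growing in log phase, and RNA was selected with oligo(dT) beads. The edited group, G3C2, held 3 libraries of 1 clone made deficient in ZFP36L1 by CRISPR/Cas9. The unedited group, WT, held 3 libraries of the same line with no edit and no treatment. ZFP36L1 binds AU-rich elements in the 3′ ends of mRNAs and shortens the life of the transcripts that carry them. The question of the study was how its loss alters gene expression. With 1 clone, the genotype and the clone cannot be told apart, and in bulk RNA more RNA per cell and a larger share of cells with the RNA cannot be told apart either. Each group had a library with no letter, called replicate 1 here, in a first table, and libraries b and c in a second.

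Reads recovered from the second table numbered 22614634 to 28977502 in a library. ZFP36L1 itself had 238.1, 105.1 and 82.4 FPKM in G3C2 replicates 1, b and c, against 165.2, 57.1 and 127.5 in WT, and was thus above WT in replicates 1 and b. The labels place the check of the edit on sequencing and western blotting, and the transcript level does not check it. Of 8 markers of osteosarcoma or mesenchymal cells, SPARC (at least 190.9 FPKM in every library), VIM, COL1A1, S100A6 and RUNX2 were present, while ALPL stayed under 0.80, COL1A2 at or under 0.52 and TWIST1 at or under 0.02 FPKM. Summed over their lists, leukocyte markers came to between 0.10 and 0.53 FPKM, endothelial markers to between 0.23 and 1.98, and epithelial markers to between 3.41 and 20.02.

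Mitochondrial ribosomes translate the few mRNAs of the mitochondrial genome, which encode core subunits of the respiratory chain and of ATP synthase. Their RNA is made inside the organelle, whereas every protein is encoded in the nucleus, made in the cytosol and imported. Some proteins have counterparts in the bacterial ribosome and others were added in the mitochondrial lineage. Defects in several of the genes, MRPS16, MRPS22 and MRPL3 among them, cause combined respiratory chain deficiencies. The symbols do not map cleanly to the particle. MRPS18A and MRPS30 encode proteins of the large subunit, and the MRPS36 product belongs to the 2-oxoglutarate dehydrogenase complex.

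Promoter letters played no part in the choice of members. Promoters from RefSeq (GRCh38.p14) could be matched for 69 members, and the 250 bases before each start were searched on both strands. The letters CCGGAAG, the core bound by ETS-family factors such as GABPA, were present in 23 members (33.3%), against 11.8% of 15843 promoters. The palindrome of the respiratory regulator NRF1, GCGCA and GCGC with any base between them, was present in 8 (11.6%, against 7.65%). AAGATGGC, a YY1 motif, was present in 5 (7.25%, against 1.39%). TATAAA was found in 2 (2.90%, against 9.23%). CCAAT was found in 27.5% of members against 34.5% of promoters, GGGCGG in 55.1% against 56.0%, and CACGTG in 8.70% against 7.84%. CCGGAAG can overlap the other motifs searched. A match is a description of letters, not of binding. Windows of 30 bases upstream of or reaching the RefSeq start, which can differ from the GENCODE start, are read 5′ to 3′ in the direction of the gene. They are given for MRPL33, MRPL17, MRPL57, MRPL27 and MRPS26, which were higher in G3C2 in all 3 replicates, and for the abundant members MRPL51 and MRPS34. A window was printed only where the ETS or NRF1 letters were found, and none was for MRPS35, also higher in all 3 replicates. The windows therefore do not show how common the letters are among such members. Capitals mark the ETS letters on either strand, or the NRF1 letters in MRPL17 and MRPL57.
MRPL33 (chr2:27771689-27771718, plus strand): tcttccagaaccgggccgtgccCCGGAAGc
MRPL17 (chr11:6683402-6683431, minus strand): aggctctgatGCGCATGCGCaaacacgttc
MRPL57 (chr13:21176574-21176603, plus strand): cctcggctctGCGCAGGCGCagtcctctct
MRPL27 (chr17:50373220-50373249, minus strand): tgccacgcagggcCCGGAAGtagatctcct
MRPS26 (chr20:3046002-3046031, plus strand): gttccccgcgccgCTTCCGGggcacggtgg
MRPL51 (chr12:6493365-6493394, minus strand): cggcgctccaaaaCTTCCGGcaggcggacc
MRPS34 (chr16:1773189-1773218, minus strand): gacctcttcctcgCTTCCGGccgcgaccga

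Because ZFP36L1 binds AU-rich elements, the longest annotated 3′ untranslated region of each gene in GENCODE 29 was searched for TATTTAT on the transcribed strand. It was present in 11 of 78 members (14.1%), against 6011 of 19436 protein-coding genes (30.9%). The members' regions were also shorter, with a median of 592.5 bases against 1336.5. Among the genes higher in G3C2 in all 3 replicates, 3 of 9 held the element, and their sites are shown with the element in capitals.
MRPL17, bases 195 to 201 of the region: tatataaattTATTTATtttttccttc
MRPL57, bases 779 to 785 of the region: aagtaaaagaTATTTATcagagctgtt
MRPL27, bases 643 to 649 of the region: tagtaacctgTATTTATttcaaagatg

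As a set, the mitochondrial ribosomal protein genes were slightly lower in G3C2 than in WT in replicates 1 and b and higher in replicate c. The summed FPKM of the 78 members was 4120, 1844 and 3022 in G3C2 replicates 1, b and c, against 4475, 2011 and 1360 in WT. Their median FPKM was 38.3, 18.0 and 26.6 in G3C2, against 43.9, 19.8 and 13.3 in WT. As a share of all summed FPKM the members made up 0.58%, 0.71% and 0.95% in G3C2, against 0.63%, 0.76% and 0.58% in WT. Within the second table, the highest of the 4 libraries by each of these measures was G3C2 c, and the lowest was WT c. The tables had separate scales, so these sums, medians and shares were not compared between them.

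**Figure D1:**
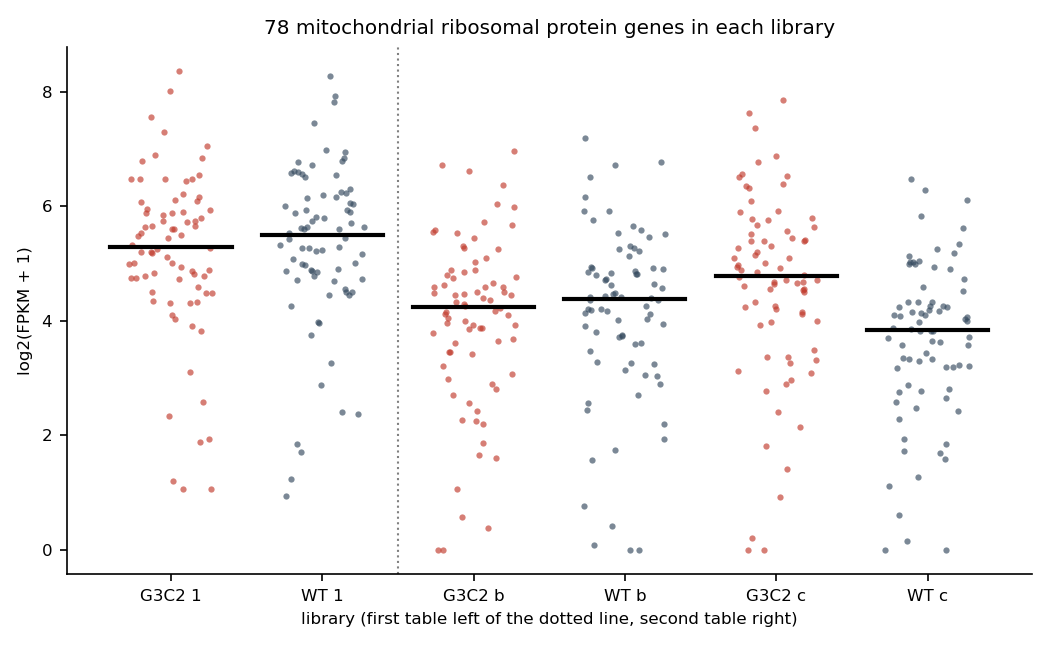
Level of each of the 78 mitochondrial ribosomal protein genes, as log2(FPKM + 1), in each of the 6 libraries, with 1 point per gene and a bar at the median. The bars of G3C2 and WT lie close together for replicates 1 and b, while for replicate c the median FPKM was 26.6 in G3C2 and 13.3 in WT.

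The fit over all 3 replicates called no member. It compared log2(FPKM + 1) between 3 libraries of each genotype with limma, with a term for the table, and adjusted p-values over 15001 genes by the Benjamini-Hochberg method. At an adjusted p under 0.05, 0 members were higher in G3C2, where 0.02% of all genes were, and 0 were lower, where 0.0267% were. At an unadjusted p under 0.05, limma gave 1 member higher (6.19% of all genes) and 0 lower (7.43%). The members' median log2 fold change was 0.24, against 0.01 over all genes tested, and their fold changes ran between -0.21 for MRPS17 and 0.77 for MRPS35. The lowest adjusted p of any member in limma was 0.352. The genotype difference also did not differ between the tables past the threshold: limma's interaction of genotype and table had 0 members at an adjusted p under 0.05 (0% of all genes) and 1, MRPL38, at an unadjusted p under 0.05 (2.86% of all genes).

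Of the 77 tested members, 9 were higher in G3C2 in all 3 replicates (17.8% of all genes tested) and 0 were lower in all 3 (18.6%). The 6 with the largest fold changes among the 9 were MRPS35, MRPL33, MRPL17, MRPL57, MRPL27 and MRPS26. MRPS35, a protein of the small subunit on chromosome 12 (27710773 to 27756295, plus strand, GRCh38), had 131.5, 50.1 and 93.8 FPKM in G3C2 replicates 1, b and c, against 109.3, 38.5 and 28.9 FPKM in WT. It was higher in G3C2 in each replicate, by 1.20-, 1.30- and 3.24-fold, and the lowest G3C2 value of the second table lay above the highest WT value there. How many of all genes had that order was not counted, and MRPS35 was chosen for its fold change in these same libraries. The fitted log2 fold change was 0.77 with an SE of 0.30 over 3 libraries of each genotype, and limma gave an adjusted p of 0.352. The 11 other tested genes within 1000000 bases of MRPS35 had median log2 differences of 0.25, 0.44 and 0.66 in replicates 1, b and c, and 7 of them were higher in G3C2 in all 3.

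The other members of that group differed little in replicates 1 and b. MRPL33, a small protein of the large subunit with a bacterial counterpart (chromosome 2, 27771717 to 27988087, plus strand), had 255.4, 62.6 and 107.9 FPKM in G3C2 and 241.6, 59.4 and 37.1 FPKM in WT. Its log2 fold change was 0.56 (SE 0.31, limma adjusted p = 0.488), and 21.1% of its exon bases are shared with BABAM2. MRPL17 (chromosome 11, 6680782 to 6683401, minus strand), which has a bacterial counterpart near the exit of the peptide tunnel, had 67.9, 31.6 and 54.0 FPKM in G3C2 and 65.7, 29.6 and 19.2 FPKM in WT, a log2 fold change of 0.53 (SE 0.30, limma adjusted p = 0.487). In both genes the G3C2 and WT libraries b stood close together and the libraries c apart.

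MRPL57, a large-subunit protein without a bacterial counterpart (chromosome 13, 21176645 to 21179084, plus strand), had 14.0, 20.2 and 29.7 FPKM in G3C2 and 12.5, 19.5 and 10.9 FPKM in WT, a log2 fold change of 0.52 (SE 0.28, limma adjusted p = 0.465). MRPL27 (chromosome 17, 50367857 to 50373214, minus strand), whose bacterial counterpart reaches the peptidyl transferase centre, had 56.4, 18.7 and 28.7 FPKM in G3C2 and 55.2, 16.6 and 13.1 FPKM in WT, a log2 fold change of 0.42 (SE 0.23, limma adjusted p = 0.481). MRPS26, a mitochondria-specific protein of the small subunit (chromosome 20, 3045945 to 3048254, plus strand), had 26.4, 47.3 and 67.1 FPKM in G3C2 and 25.4, 44.6 and 31.5 FPKM in WT, a log2 fold change of 0.40 (SE 0.23, limma adjusted p = 0.500). In replicate c these 3 genes were 2.73-, 2.19- and 2.13-fold higher in G3C2, and in replicates 1 and b at most 1.12-fold.

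Within each replicate most members lay on the same side of 0, but not on the same side each time. In replicate 1 their median log2 difference, G3C2 minus WT, was -0.13 (all genes tested -0.08), with 21 members higher (41.0% of all genes) and 56 lower (58.4%). With the libraries set to equal medians, 32 were higher in replicate 1. In replicate b it was -0.11 (all genes -0.01), with 13 higher (48.1%) and 62 lower (50.7%). In replicate c it was 0.94 (all genes 0.07), with 75 higher (55.0%) and 0 lower (43.8%), the remaining 2 being listed at 0 in both libraries.

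The size of the differences separated replicate c further. At least 1.5-fold higher in G3C2 on the log2(FPKM + 1) scale were 0 members in replicate 1 (5.95% of all genes), 0 in b (5.07%) and 65 in c (22.1%). At least 1.5-fold lower were 4 in replicate 1 (12.5%), 0 in b (4.05%) and 0 in c (14.0%). The 4 were MRPL38, MRPS25, MRPS17 and MRPL32, named after their values were seen. A pattern of lower in replicates 1 and b and higher in c was shown by 50 members (64.9%), and by 19.3% of all genes. Each replicate holds 1 library per genotype, so these differences have no replicate of their own and no test. The pattern pairs G3C2 b with WT b and G3C2 c with WT c by the letters in the titles. Inside the second table, deviations from the group means of libraries with the same letter correlated at -0.17. The values there thus do not show that libraries with the same letter were matched, and with other pairs the pattern could differ.

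**Figure D2:**
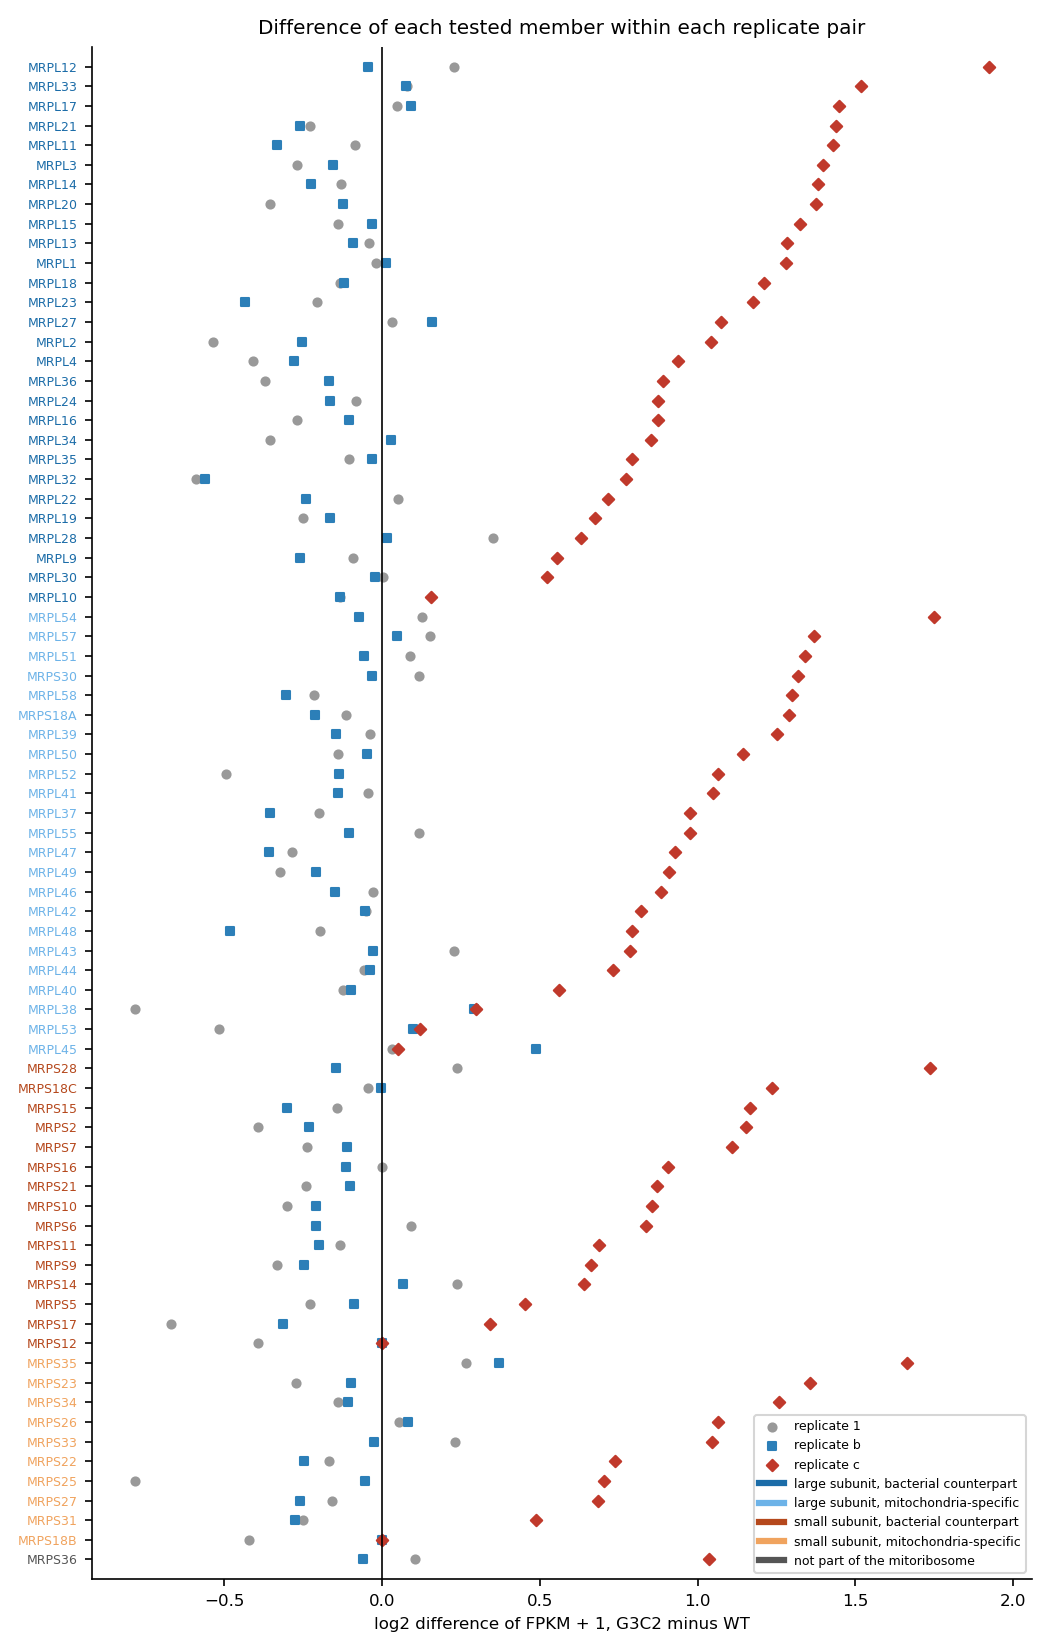
Log2 difference of FPKM + 1, G3C2 minus WT, of each of the 77 tested members within replicate 1 (circles), b (squares) and c (diamonds), with genes coloured by class and ordered within it by replicate c. The diamonds lie at or right of 0 in all members, reaching 1.92 for MRPL12, while most circles and squares lie left of 0.

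MRPL32, a large-subunit protein that is cut to its mature form inside mitochondria by the m-AAA protease, was the clearest case of opposite directions. It had 49.2 and 14.2 FPKM in G3C2 replicates 1 and b, against 74.6 and 21.5 FPKM in WT, and 27.9 FPKM in G3C2 c against 15.9 in WT c. It was lower by 0.59 and 0.56 (log2) in replicates 1 and b, and higher by 0.77 in c. Without replicate c its log2 fold change was -0.58 (SE 0.10, limma adjusted p = 0.0252, 2 libraries per genotype), the only call of a member in any of the fits run. That fit called 3.05% of all genes lower. The 7 other tested genes within 1000000 bases of MRPL32 had median log2 differences of -0.32, -0.38 and -0.21 in replicates 1, b and c. Whether the MRPL32 difference belongs to the gene or to its region was not tested.

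Scaling bears on the size of the replicate c difference. The divisor behind the deposited FPKM differed from the recovered reads, which came to 114.6% of it in G3C2 c and 89.0% in WT c, against 98.4% and 97.7% in the libraries b. With the second table rescaled to total recovered reads, the members' median in replicate c was 0.62, the median of all genes -0.16, and 40 members were at least 1.5-fold higher, where 10.9% of all genes were. With equal sums over nuclear genes, the member median was 0.43, that of all genes -0.31, and 29 members were at least 1.5-fold higher (7.12% of all genes). The gap between members and all genes was 0.86 as deposited, 0.78 per total reads, 0.73 with equal nuclear sums and 0.61 with quantile normalization.

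Replicates b and c of the second table also differed within each genotype, in opposite directions. In G3C2, c exceeded b by a median log2 difference of 0.60 (all genes 0.05), with 74 of 77 members higher in c (54.3% of all genes) and 1, MRPL45, lower (44.4%). At least 1.5-fold higher in G3C2 c were 40 members (12.4% of all genes) and at least 1.5-fold lower 0 (8.84%). The 40 became 18 per total recovered reads (5.78% of all genes), 12 with quantile normalization (7.58%) and 6 with equal nuclear sums (4.01%). In WT the median of c minus b was -0.51 (all genes -0.06), with 70 members lower in c (56.7% of all genes) and 5 higher (42.2%). At least 1.5-fold lower in WT c were 27 members (8.13% of all genes) and at least 1.5-fold higher 0 (6.71%). The 27 became 14 per total recovered reads (5.01% of all genes), 17 with quantile normalization (5.83%) and 7 with equal nuclear sums (3.31%). Above b in G3C2 and below b in WT were 70 members (90.9%), and 36.0% of all genes. For 66 members (85.7%), against 25.6% of all genes, G3C2 c was the highest and WT c the lowest library of the table. These 2 contrasts share no library with each other, but each shares its libraries with the replicate differences above, so they restate the same 4 values from the other side. What separated b from c, in culture or in the laboratory, was not given in the labels used here.

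**Figure D3:**
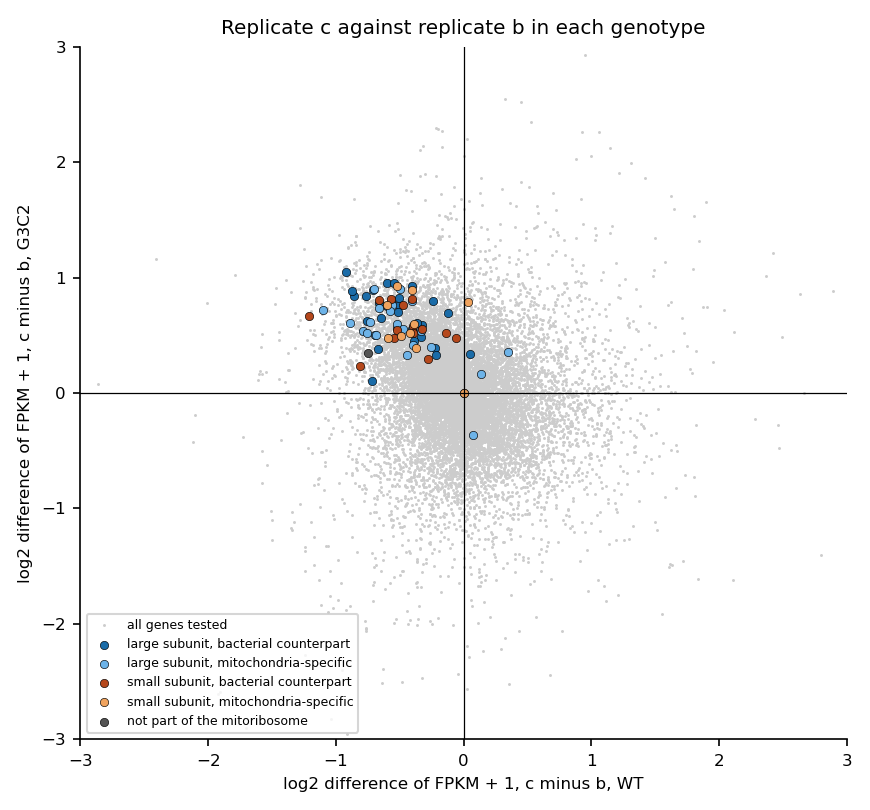
Log2 difference of FPKM + 1, replicate c minus replicate b, in WT on the horizontal and in G3C2 on the vertical axis, for all 15001 genes tested (grey, 8 of them outside the axes) and the members coloured by class. The members gather in the upper left, which holds 70 of 77 members and 36.0% of all genes.

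In G3C2 the 4 largest differences of c over b were those of MRPL12, MRPL20, MRPL3 and MRPS23. MRPL12, the stalk protein that receives translation factors, had 48.9 FPKM in G3C2 c and 23.1 in G3C2 b, and 12.1 in WT c and 23.9 in WT b. MRPL3, one of the core proteins with a bacterial counterpart, had 82.9 in G3C2 c and 42.3 in G3C2 b, and 30.9 in WT c and 47.3 in WT b. MRPL20 and MRPS23 had 31.2 and 22.3 FPKM in G3C2 c, and 15.6 and 11.3 in G3C2 b.

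In WT the 4 largest differences were those of MRPS28, MRPL54, MRPL12 and MRPS18A, all lower in c. MRPS28 had 6.02 FPKM in WT c and 15.3 in WT b, and MRPL54 had 13.2 in WT c and 29.5 in WT b. In G3C2 the same genes stood at 22.4 in c and 13.7 in b (MRPS28), and 46.6 in c and 27.98 in b (MRPL54). Exon annotation overlaps at these genes: 68.2% of the exon bases of MRPL12, 35.8% of MRPS28 and, on the opposite strand, 47.0% of MRPS18A are also annotated to another gene, and whether the counting used strand is not stated in the labels.

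Few members stood apart from the rest. MRPL10, MRPL38, MRPL45, MRPL53 and MRPS25 were higher in WT c than in WT b. MRPL10 had 19.2 FPKM in G3C2 c and 17.1 in WT c, a log2 difference of 0.16. MRPL53 had 2.54 FPKM in G3C2 c and 2.26 in WT c. These members were named after their values were seen, and MRPL38, MRPL53 and MRPS25 share over 20% of their exon bases with another gene. Across the 74 members that averaged 1 FPKM or more in the second table, the c minus b differences in G3C2 and in WT had a Pearson r of -0.33 and a Spearman rho of -0.33, as a description across genes that share the 4 libraries.

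Both subunits and both evolutionary classes took part. In replicate c the median log2 difference, G3C2 minus WT, was 1.06 for the 28 large-subunit members with a bacterial counterpart, 0.97 for the 23 large-subunit members without one, 0.86 for the 15 tested small-subunit members with a counterpart and 0.89 for the 10 without. In replicate 1 the same classes were at -0.13, -0.06, -0.23 and -0.16, and in replicate b at -0.13, -0.10, -0.15 and -0.08. At least 1.5-fold higher in replicate c were 25 of 28, 19 of 23, 12 of 15 and 8 of 10. The ranges of the classes overlapped in every replicate. MRPS36, whose product is no ribosomal protein, had 52.7, 19.1 and 24.6 FPKM in G3C2 and 49.0, 20.002 and 11.5 FPKM in WT, and its replicate c difference was 1.04. With MRPS36 left out and DAP3, PTCD3, AURKAIP1, CHCHD1 and GADD45GIP1, structural proteins with other symbols, put in, the replicate c median was 0.93 over 81 tested genes.

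The 3 paralogs of bacterial protein S18 occupy different places in the particle. MRPS18C, in the bacterial position of the small subunit, had 4.04, 3.60 and 6.83 FPKM in G3C2 and 4.20, 3.62 and 2.33 FPKM in WT. MRPS18A, of the large subunit, had 23.2, 24.4 and 37.7 FPKM in G3C2 and 25.2, 28.4 and 14.8 FPKM in WT. Both were nearly level or lower in G3C2 in replicates 1 and b and higher in c. MRPS18B, a mitochondria-specific protein of the small subunit, had 67.4 FPKM in G3C2 1 and 90.6 in WT 1, and was listed at 0 in all 4 libraries of the second table.

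MRPS18B was not alone in being absent from 1 table. MRPS12, the counterpart of a bacterial decoding-centre protein, had 26.5 FPKM in G3C2 1 and 35.1 in WT 1 and was likewise listed at 0 in the second table. MRPL45, which ties the particle to the inner membrane, had 38.9 FPKM in G3C2 1 and 38.0 in WT 1, but 0.49 and 0.16 in G3C2 b and c and 0.06 and 0.12 in WT b and c. MRPL12 went the other way, with 2.85 FPKM in G3C2 1 and 2.29 in WT 1 beside the values over 12 in the second table. An exact 0 in a table of FPKM may be a failed estimate. PPP1R10, which starts opposite MRPS18B, was also at 0 throughout the second table, with 75.0 FPKM in G3C2 1 and 69.7 in WT 1. The 33 other tested genes within 1000000 bases of MRPS18B, and 20 around MRPL45, had median log2 differences of 0 in replicates b and c. Around MRPS12 the medians were -0.05 and 0.13. Whether the missing values belong to the genes or to their regions was not tested. Over the 74 members that averaged at least 1 FPKM in the second table the replicate c median was 0.97. The gene lengths behind the first table are not stated in the labels or headers.

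By listed FPKM, the most abundant members of the first table were MRPL51 (327.3 FPKM in G3C2 and 308.1 in WT), MRPL33, MRPL3 (186.8 and 225.5) and MRPS27 (155.0 and 173.3). The lowest were MRPS24, MRPL46 (1.32 and 1.37) and MRPL38 (1.08 and 2.59). In the second table the most abundant were MRPL14, with 123.4 and 230.1 FPKM in G3C2 b and c and 144.4 and 87.7 in WT b and c, and MRPL51, with 104.4 and 195.8 in G3C2 and 108.7 and 76.8 in WT. MRPS34 (96.5 and 164.5 in G3C2, 104.1 and 68.2 in WT) and MRPL41 (81.6 and 115.9 in G3C2, 90.0 and 55.5 in WT) followed. In each of these 4 genes G3C2 c was the highest and WT c the lowest of the table. The members' mean levels in the 2 tables had a Spearman rho of 0.67 over 74 genes, as a description.

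The difference in replicate c was largest among abundant genes, for the members and for all genes. The tested genes were divided into 5 groups of equal size by mean FPKM in the second table. In the highest group, above 17.4 FPKM, the median was 1.06 for 46 members and 0.58 for all 3000 genes. In the next group it was 0.97 for 15 members and 0.24 for all genes, and in the middle group 0.79 for 9 members and 0.03 for all genes. In the group below it was 0.82 for 3 members and -0.10 for all genes, and in the lowest 0.03 for 4 members and -0.08 for all genes. Those 4 include MRPS12 and MRPS18B, listed at 0 in every library of the second table. By exon length, 28 members in the shortest of 5 such groups had a median of 1.06 and 30 in the next 1.01, against 0.14 and 0.22 over all genes of those groups. Across 74 members the replicate c difference had a Spearman rho of 0.42 with mean FPKM and -0.33 with exon length. The part of abundance or length in the result was not tested.

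**Figure D4:**
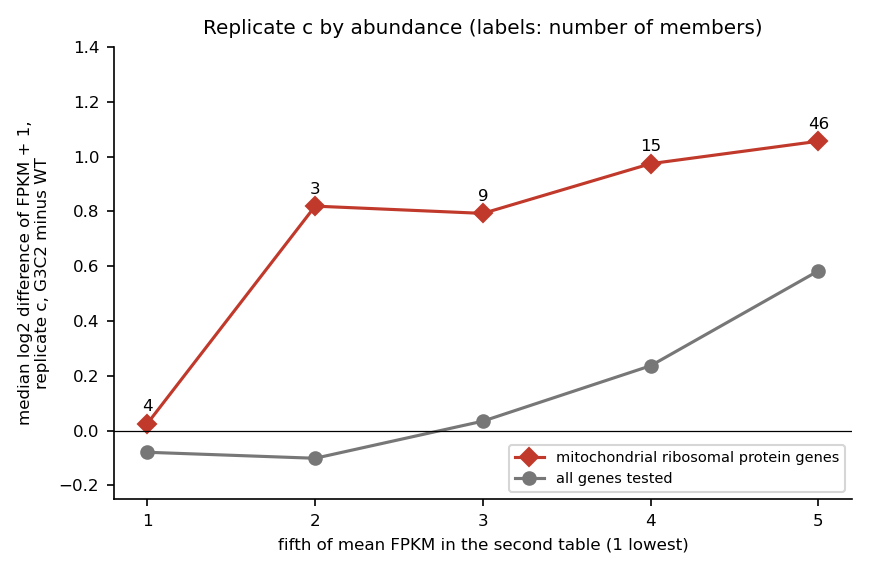
Median log2 difference of FPKM + 1 in replicate c, G3C2 minus WT, in 5 equal groups of genes by mean FPKM in the second table (low to high), for the members (diamonds, with their number) and all genes tested (circles). The members lie above all genes in every group, at 1.06 against 0.58 in the highest, and the other groups hold 3 to 15 members each.

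The 3′ untranslated element, the ETS and NRF1 letters and the layout of the start sites divided the members little in replicate c. The replicate c median was 1.04 for the 11 members with TATTTAT and 0.93 for the 66 tested without, and in replicates 1 and b these groups were at -0.04 and -0.14, and at -0.05 and -0.12. It was 1.06 for 23 members with the ETS letters and 0.89 for 45 tested without, and 0.97 for 8 with the NRF1 letters and 0.91 for 60 tested without. In replicate 1 members with and without the ETS letters were at -0.17 and -0.13, and in b at -0.10 and -0.12. With and without the NRF1 letters they were at 0.02 and -0.14 in replicate 1, and at -0.02 and -0.11 in b. Another protein-coding gene started on the opposite strand within 1000 bases of 29 members (37.2%), against 13.0% of 19951 protein-coding genes. MRPL46 and MRPS11 are each other's partner, 34 bases apart, with replicate c differences of 0.88 and 0.69. The 21 partners that are no members and were tested had a median of 0.33 in replicate c. Of these, 14 were higher in G3C2 (55.0% of all genes) and 7 at least 1.5-fold (22.1%). MRPL14 (1.38) and its partner TMEM63B (-0.36) differed in direction, while MRPL18 (1.21) and TCP1, which encodes a chaperonin subunit (1.48), did not.

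Genes that work with the mitochondrial ribosome were higher in replicate c as well, most by smaller amounts. The replicate c medians were 0.90 for the 5 structural proteins with other symbols, 0.57 for 27 genes of ribosome assembly and rRNA modification, 0.51 for 15 translation factors, 0.36 for 21 tested aminoacyl-tRNA synthetases, 0.59 for 10 genes that transcribe and copy the mitochondrial genome and 0.63 for 8 tested nuclear regulators. In these lists limma called 0 genes at an adjusted p under 0.05. At an unadjusted p under 0.05, where 6.19% of all genes were higher and 7.43% lower, it gave 2 of 15 translation factors higher and 0 lower, 1 of 21 synthetases higher and 1 lower, 1 of 8 regulators higher and 0 lower, and 0 in the other lists.

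YARS2, the mitochondrial tyrosyl-tRNA synthetase, had 59.3, 38.0 and 51.4 FPKM in G3C2 and 28.4, 16.3 and 14.9 FPKM in WT. It was higher in G3C2 in each replicate, as 17.8% of all genes tested were. Its log2 fold change was 1.31 (SE 0.19, limma adjusted p = 0.102). SLIRP, which with LRPPRC stabilises mitochondrial mRNAs, had 122.5, 22.1 and 46.1 FPKM in G3C2 and 86.4, 16.5 and 6.75 FPKM in WT (log2 fold change 1.17, SE 0.43, limma adjusted p = 0.320). GARS, which charges glycine tRNA in the cytosol and in mitochondria, was lower in G3C2 in each replicate, at 356.1, 46.4 and 62.5 FPKM against 673.1, 67.5 and 81.9 in WT (log2 fold change -0.61, limma adjusted p = 0.304). Neighbouring genes were examined for the members only, so whether genes of these lists differed along with their region was not tested.

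YY1, a transcription factor whose letters stand in 5 member promoters, had 84.0, 20.8 and 24.9 FPKM in G3C2 and 51.5, 14.0 and 8.99 FPKM in WT (log2 fold change 0.87, SE 0.20, limma adjusted p = 0.185). MTFMT, which formylates the initiator tRNA, had 19.7, 5.82 and 6.26 FPKM in G3C2 and 16.5, 4.64 and 3.88 in WT. DAP3, a GTP-binding protein of the small subunit, had 164.3, 23.6 and 34.6 FPKM in G3C2 and 185.1, 26.2 and 22.2 in WT. GRSF1, a protein of mitochondrial RNA granules, had 105.0, 25.9 and 39.1 in G3C2 and 116.6, 26.9 and 22.6 in WT. TFAM, which packages and transcribes the mitochondrial genome, had 106.0, 24.5 and 38.5 in G3C2 and 104.0, 25.5 and 19.4 in WT. DAP3, GRSF1 and TFAM showed small differences in replicates 1 and b and higher values in G3C2 c, as most members did.

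The pattern of replicate c was shared by cytosolic ribosomal protein genes and by nuclear genes of the respiratory chain, and not by the mRNAs of the mitochondrial genome. The medians in replicates 1, b and c were 0.22, -0.04 and 1.10 for 85 tested cytosolic ribosomal protein genes and 0.08, -0.01 and 0.95 for 75 tested nuclear respiratory chain genes. For 13 mRNAs of the mitochondrial genome they were -0.09, -0.36 and -0.49. In replicate c, 0 of these 13 were higher in G3C2, where 75 of 77 members were. The mitochondrial genome made up 4.92%, 7.39% and 6.67% of summed FPKM in G3C2 replicates 1, b and c, against 5.20%, 8.72% and 13.8% in WT, so within the second table the share was highest in WT c, where the members' summed FPKM was lowest. Its part in the members' values was not tested. Replicate 1 was where the cytosolic genes (0.22) and the members (-0.13) had medians of opposite sign. With equal medians across libraries the member value there was -0.04.

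**Figure D5:**
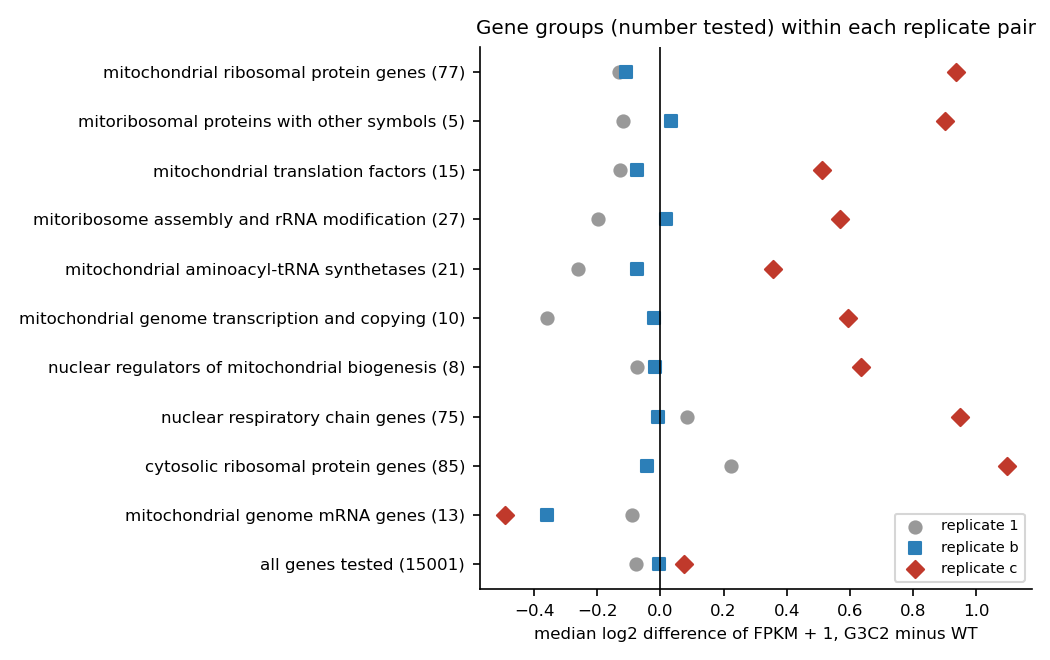
Median log2 difference of FPKM + 1, G3C2 minus WT, of gene groups (number tested in brackets) within replicate 1 (circles), b (squares) and c (diamonds). In replicate c the members (0.94), cytosolic ribosomal protein genes (1.10) and nuclear respiratory chain genes (0.95) lie well above all genes (0.07), and the mitochondrial genome mRNAs lie at -0.49.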

How the data were processed

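Poly(A) RNA of 6 U2OS libraries was deposited by the authors as FPKM in 2 tables with separate scales. Per the submitters' processing notes, HISAT2, CASAVA and the genome build GRCh38.p12 were used. Tool versions, counting, strand setting and gene lengths are not given in the sources used here. Groups and the letters b and c came from the sample titles, and p-values cover only the spread among these libraries, which may be partly technical.

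When multiplied by GENCODE 29 exon lengths, values of the second table were whole reads, within 0.02 reads, in 97.3% to 97.4% of cases per library. In the first table this held for 34.0% and 35.6% of values, and for 97.9% and 98.0% in genes with 1 transcript. The first table's total reads were not recovered.

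The test was run on log2(FPKM + 1) in limma 3.58.1 (R 4.3.3), with terms for genotype and table, a variance trend and Benjamini-Hochberg adjustment over 15001 genes. It was also run on values simulated with independent noise and known changes. That simulation held no shift shared by the genes of a library, so it cannot show how the fit behaves under one. Fold changes on this scale understate low genes. Deviations from group means of libraries with the same number correlated over 15001 genes at 0.93 for replicate 1, 0.80 for b and 0.60 for c, so the numbers were taken as pairs, but the separate tables alone would give this, and inside the second table the correlation was -0.17. The members and lists were chosen with earlier results of these data known. Genes were named by rule: the 6 largest fold changes in each direction among members with 1 direction in all 3 replicates (none was lower in all 3), the highest and lowest by FPKM in each table, the largest and smallest c minus b differences, the MRPS18 paralogs and MRPL12, and from each list up to 3 at an unadjusted p under 0.05 or else the highest mean FPKM over the 6 libraries. Sequences are from RefSeq and GENCODE 29. Alternatives were other pseudocounts, filters, scalings and variance models, the replicate block, and libraries left out. Python 3.11.15 with pandas 2.3.3 and matplotlib 3.10.9 was used.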

Additional observations from a re-analysis of the deposited data

Results flagged for a closer look

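The direction of the c minus b difference was opposite in the 2 genotypes. The members' median log2 difference was 0.60 in G3C2 and -0.51 in WT. Each genotype has 1 library b and 1 library c, so the difference between them was not tested, and its origin was not tested either. Groups of 3 libraries were too small to look for single libraries that stand apart.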

How the results depend on the processing

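The count of members called higher was 0 in all 23 alternative fits, and that of members called lower was 0 in 22 and 1 without replicate c. Over all genes tested, 448 were called higher and 457 lower without replicate c, and 60 and 151 without replicate b. The other fits called at most 11 genes higher and at most 6 lower, and several called 0, so a 0 for the members says little there. The interaction of genotype and table had 0 members called in all 12 of its alternatives. Over all genes, it called 2105 of 56982 with no filter on low values and 0 in each other alternative. The median fold change of the members was 0.24. It was 0.39 in the second table alone, with and without the replicate block, 0.12 with quantile normalization, 0.074 with equal nuclear sums and 0.13 per total recovered reads, the last chosen after seeing the data. With libraries or replicates left out it ran between -0.16 (without replicate c) and 0.44 (without replicate b). Without WT c alone it was 0.04 and without G3C2 c alone it was -0.00019, so it rested on the libraries c. Counts of calls without a replicate ran between 0 and 0 for members called higher and between 0 and 1 for members called lower.

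The replicate block left 0 members called in either direction and the median at 0.24. A crossed block, chosen after seeing the data, paired G3C2 b with WT c and G3C2 c with WT b. It also called 0 members. At an unadjusted p under 0.05 in limma it had 11 members higher and 0 lower, and 2574 of 15001 genes in either direction. The same threshold gave 1 member higher and 14 lower without replicate c, where 9.53% of all genes were higher and 12.9% lower. Without replicate b it gave 4 members higher and 0 lower, and 1614 of 15001 genes in either direction. The median of replicate c was 1.05 with a pseudocount of 0.1, 0.63 with quantile normalization, 0.43 with equal nuclear sums and 0.62 per total recovered reads. In the last 3 settings the c minus b median was 0.41, 0.30 and 0.39 in G3C2 and -0.34, -0.28 and -0.39 in WT. The cause of these shifts was not tested. The signs of all 5 medians within replicates and within genotypes held in every setting. The 6 members named for a fold change were higher in all 23 fits and past the threshold in none. They were chosen for being higher in all 3 replicates of the same libraries, so their direction in these fits was largely fixed by the choice. Depth was recovered for the second table only.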
